A study of Mus musculus with 8 samples.

Results

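A set of 10 genes in the prostaglandin pathway was followed in whole ankle joints of mice: the synthases Ptgs1, Ptgs2, Ptges, Ptgis, Ptgds and Hpgds, the degrading enzyme Hpgd and the receptors Ptger2, Ptger4 and Ptgir. They were chosen by name, with earlier results of these data known. Every probe set of the array that the platform annotation assigns to 1 of these genes alone was taken. This gave 15 probe sets of 9 genes, out of 45037 probe sets and 18193 named genes on the array. No probe set was listed for Ptgs1 alone, so Ptgs1 was not analysed here. Joints were taken at 5 months of age on 8 single-colour Affymetrix arrays. A first group of 3 arrays came from mice that over-express a human TNF transgene (hTNF) and are labelled functionally null for sphingosine kinase 1 (Sphk1). A second group of 3 came from mice with the same transgene and normal Sphk1, and 2 arrays came from wild-type mice with normal TNF and normal Sphk1. The transgene is thus shared by the first 2 groups, and the labels name neither its promoter nor the strain or sex of the mice. The labels describe single mice without saying whether animals of a group shared a litter, cage or RNA preparation. The p-values therefore rest on the array-to-array spread alone, some of which can be technical.

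Prostaglandins are made from arachidonic acid by cyclooxygenases, of which Ptgs1 is the constitutive and Ptgs2 the inducible form, and by terminal synthases that each make 1 end product. Ptges makes prostaglandin E2, Ptgis makes prostacyclin, and Ptgds and Hpgds make prostaglandin D2. Hpgd oxidises prostaglandins and so inactivates them. Ptger2 and Ptger4 are receptors of prostaglandin E2 and Ptgir is the receptor of prostacyclin, and all 3 couple to the G protein that raises cyclic AMP. In inflamed joints prostaglandin E2 is known for pain, swelling and bone loss, and in cultured fibroblasts sphingosine 1-phosphate, the product of Sphk1, is known to take part in the induction of Ptgs2 by TNF. The comparisons below ask how the transgenic joint differs from wild type in these genes, and whether it differs between transgenic joints labelled Sphk1 null and those with normal Sphk1.

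The promoter windows of the 4 genes that were higher in transgenic joints, Ptger2, Ptger4, Ptges and Ptgir, and of the inducible cyclooxygenase Ptgs2 are shown because they hold the letters around the start of the genes that the results turn on. They are RefSeq windows of GRCm38.p6, from 250 bases before to 50 bases after the annotated start, read 5′ to 3′ on the strand of the gene. Ptger2 lies on the plus strand at chr14:44987861-44988160, Ptger4 on the minus strand at chr15:5244138-5244437, Ptges on the minus strand at chr2:30903248-30903547, Ptgir on the plus strand at chr7:16906240-16906539 and Ptgs2 on the plus strand at chr1:150099781-150100080. Capitals mark matches, on either strand, to the NF-kB motif (searched by name), the AP-1 motif TGANTCA, the cyclic AMP response half-site TGACG, the E-box CACGTG, the TATA box TATAAA and the GC box GGGCGG.
Ptger2: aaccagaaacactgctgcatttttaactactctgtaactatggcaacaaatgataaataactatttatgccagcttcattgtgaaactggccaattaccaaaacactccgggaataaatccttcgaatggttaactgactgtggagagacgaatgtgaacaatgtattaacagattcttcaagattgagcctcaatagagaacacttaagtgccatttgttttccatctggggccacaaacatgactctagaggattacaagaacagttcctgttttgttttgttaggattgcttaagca
Ptger4: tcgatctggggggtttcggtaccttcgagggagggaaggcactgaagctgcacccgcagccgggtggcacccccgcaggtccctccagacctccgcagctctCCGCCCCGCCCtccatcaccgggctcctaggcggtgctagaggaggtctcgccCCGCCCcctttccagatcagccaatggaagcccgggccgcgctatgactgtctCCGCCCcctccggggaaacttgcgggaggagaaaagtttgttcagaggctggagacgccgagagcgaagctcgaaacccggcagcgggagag
Ptges: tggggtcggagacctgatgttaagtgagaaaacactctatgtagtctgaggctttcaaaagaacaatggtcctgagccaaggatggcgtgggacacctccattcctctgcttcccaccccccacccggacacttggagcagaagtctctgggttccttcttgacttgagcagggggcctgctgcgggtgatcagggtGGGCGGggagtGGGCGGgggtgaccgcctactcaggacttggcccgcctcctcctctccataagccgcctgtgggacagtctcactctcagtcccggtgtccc
Ptgir: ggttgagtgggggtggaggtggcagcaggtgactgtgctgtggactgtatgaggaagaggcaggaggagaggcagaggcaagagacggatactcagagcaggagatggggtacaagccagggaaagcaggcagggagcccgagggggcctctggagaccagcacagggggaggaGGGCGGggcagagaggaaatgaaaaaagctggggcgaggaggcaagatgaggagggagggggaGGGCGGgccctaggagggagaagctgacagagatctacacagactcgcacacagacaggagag
Ptgs2: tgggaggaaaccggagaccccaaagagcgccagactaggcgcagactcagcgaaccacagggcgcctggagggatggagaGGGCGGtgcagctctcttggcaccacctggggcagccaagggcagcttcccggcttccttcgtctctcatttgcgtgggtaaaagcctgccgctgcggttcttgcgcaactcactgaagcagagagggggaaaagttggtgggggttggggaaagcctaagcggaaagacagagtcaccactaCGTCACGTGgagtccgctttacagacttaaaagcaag
Ptger4 held 4 GC boxes, 2 of them overlapping, and Ptges and Ptgir held 2 each. Ptger2 held none of the 6 motifs and had the lowest share of G and C of the 9 member windows in the table, 37.7% against 67.0% in Ptger4. Ptgs2 held 1 GC box and, just after the annotated start at window position 264, a cyclic AMP half-site that overlaps an E-box at position 267. Over all 32851 windows of the same length, the GC box was found in 35.7%, the half-site in 20.8%, the TATA box in 13.6%, the NF-kB motif in 8.46%, the AP-1 motif in 7.81% and the E-box in 7.15%. Among the 9 member windows, which include Ptgs1 and lack Ptgis, the NF-kB and AP-1 motifs were found in 1, that of Ptgds. These matches describe letters and are not binding sites.

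Array medians lay between 6.84 and 6.89 log2, and tests were run on probe sets that read above 6.87 log2, the median of all deposited values, on 2 or more of the 8 arrays. The mean level of 6 cartilage genes was 11.11 to 11.17 log2 in wild type. It was 9.97 to 10.26 in joints labelled Sphk1 null and 10.07 to 10.25 in hTNF. Skeletal muscle was the brightest marker list on every array. The mean of its 8 genes was 14.29 on both wild-type arrays. In joints labelled Sphk1 null it was 12.89 to 13.22, and in hTNF 12.95 to 13.29. Some lists and transcripts set single arrays apart. The mean of 10 skin genes was 6.50 to 10.08 in joints labelled Sphk1 null, 6.30 to 11.52 in hTNF and 6.92 to 8.07 in wild type, and that of 8 neutrophil and marrow genes was 10.10 to 11.80 in joints labelled Sphk1 null, 9.87 to 10.95 in hTNF and, in wild type, 8.10 on replicate 1 and 11.64 on the other. Xist and Y-linked Eif2s3y differed within each group. Replicate 1 of the joints labelled Sphk1 null, hTNF replicate 1 and wild-type replicate 2 carried both. On these Eif2s3y read 9.14, 6.60 and 6.91, against 3.46 to 3.81 on the 3 arrays without it. Whether each array that carried both holds RNA of a single mouse is thus not known here. By its tested probe set the Sphk1 transcript was highest in the joints labelled null for it. That probe set averaged 10.05 log2 in joints labelled Sphk1 null, 8.52 in hTNF and 7.20 in wild type. A second one, below the filter value on all arrays, averaged 6.47, 6.59 and 6.26 in the same order. A functionally null allele can still give a transcript, and where either probe set lies relative to the altered part of the gene is not known here. These levels thus leave the label unchecked, a limit on every direction drawn from that group.

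Among the members the receptors showed the widest separation from wild type. Ptger2 (probe set 1449310), the EP2 receptor of prostaglandin E2, read 8.69, 8.05 and 8.28 log2 in joints labelled Sphk1 null, 8.09, 8.25 and 8.32 in hTNF and 5.58 and 6.13 in wild type. All 6 transgenic arrays lay more than a log2 unit above both wild-type arrays, and the 2 transgenic groups overlapped. Both wild-type values lie below the filter value, so Ptger2 entered the test only through its 6 transgenic arrays, and the size of its difference depends on the background. It rose by 2.37 ± 0.21 log2 in hTNF against wild type (SE, 3 arrays against 2; limma adjusted p = 8.46e-05), and by 2.48 ± 0.21 in joints labelled Sphk1 null against wild type (limma adjusted p = 4.29e-05). In the fit without any filter the call in hTNF held (limma adjusted p = 9.9e-05), and with 32 added before log2 the difference was 1.87. In bulk joint, fewer cells of a type and less RNA per cell cannot be told apart, and this holds for every result below.

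Ptger4, the EP4 receptor of prostaglandin E2, was read by 2 probe sets. The brighter one (1424208) read 10.22, 10 and 9.87 log2 in joints labelled Sphk1 null, 9.94, 10.27 and 10.25 in hTNF and 8.26 and 8.70 in wild type. The wild-type arrays lay apart below all others. Ptger4 rose by 1.67 ± 0.17 log2 in hTNF against wild type (3.19-fold; limma adjusted p = 0.000151) and by 1.55 ± 0.17 in joints labelled Sphk1 null against wild type (2.93-fold; limma adjusted p = 0.000135). The dimmer probe set (1421073) averaged 7.87 ± 0.21 log2 (SD, n = 3) in joints labelled Sphk1 null, 7.84 ± 0.34 (n = 3) in hTNF and 5.90 (5.66 and 6.15) in wild type. Its wild-type values lie below the filter value, so it too entered the test only through the transgenic arrays. Its difference in hTNF was 1.94 ± 0.23 log2 (SE), or 1.51 with 32 added before log2, and adds no independent count to that of the brighter probe set.

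Ptgir (1427313), the prostacyclin receptor, read 8.94, 8.40 and 8.38 log2 in joints labelled Sphk1 null, 8.66, 9.02 and 8.81 in hTNF and 7.60 and 7.40 in wild type. All transgenic arrays were above wild type, with 1 of the joints labelled Sphk1 null within the hTNF range and the other 2 below it. It rose by 1.33 ± 0.19 log2 in hTNF against wild type (2.51-fold; limma adjusted p = 0.00076) and by 1.07 ± 0.19 in joints labelled Sphk1 null (2.1-fold; limma adjusted p = 0.00171). The calls of Ptger2, Ptger4, Ptgir and Ptges against wild type held under every alternative run, the leaving out of each array included.

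**Figure D1:**
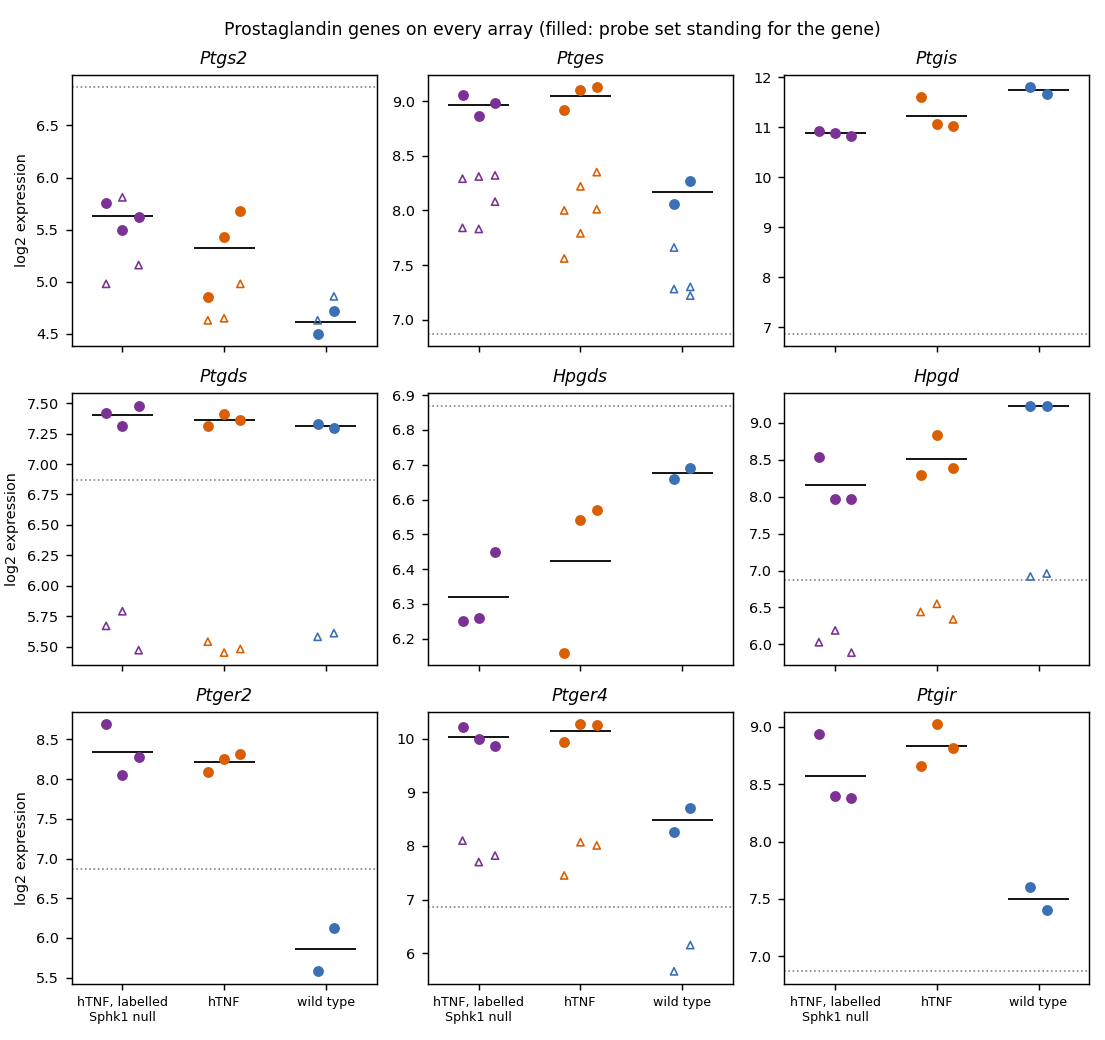
Log2 expression of the 9 measured genes on each of the 8 arrays, by group, with a separate vertical range in each panel. Filled circles are the probe set that stands for the gene, open triangles its other probe sets, black bars group means of the filled circles, and the dotted line is the filter value of 6.87 log2; Ptger2, Ptger4, Ptgir and Ptges lie higher on all 6 transgenic arrays than in wild type, and Ptgis and Hpgd lower.

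The markers of macrophages moved with the receptors. Of 10 macrophage genes, 9 rose and 0 fell in hTNF against wild type, with a median difference of 1.90 log2. The mean level of that list was 11.30 to 11.61 log2 in joints labelled Sphk1 null, 10.97 to 11.35 in hTNF and 9.40 to 9.46 in wild type, with no overlap between transgenic and wild-type arrays. Of 8 fibroblast and synovium genes 4 rose and 1 fell, and their mean was 12.74 to 12.81 log2 in joints labelled Sphk1 null, 12.68 to 12.77 in hTNF and 12.38 to 12.43 in wild type. Of 8 neutrophil and marrow genes 0 rose and 0 fell in hTNF against wild type, with a median difference of 0.80 log2. Over all tested genes 16.5% were called higher and 19.6% lower in that comparison. Myeloid cells and synovial fibroblasts can both express Ptger2 and Ptger4, and the part of either in the rises of these receptors was not tested.

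Among the synthases, Ptges rose in transgenic joints. Its brightest probe set (1449450) read 9.06, 8.86 and 8.98 log2 in joints labelled Sphk1 null, 8.92, 9.10 and 9.13 in hTNF and 8.06 and 8.27 in wild type. No transgenic array reached down to wild type, and the 2 transgenic groups overlapped. The rise was 0.88 ± 0.12 log2 in hTNF against wild type (SE; 1.85-fold; limma adjusted p = 0.000705) and 0.80 ± 0.12 in joints labelled Sphk1 null against wild type (1.74-fold; limma adjusted p = 0.00084). The other 2 Ptges probe sets rose by 0.71 ± 0.15 and 0.54 ± 0.15 log2 in hTNF, so all 3 were called in the same direction.

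Ptgs2, the inducible cyclooxygenase, was too dim to be tested with the filter. Its brighter probe set (1417262) read 5.76, 5.50 and 5.62 log2 in joints labelled Sphk1 null, 4.85, 5.43 and 5.68 in hTNF and 4.50 and 4.72 in wild type. Every transgenic array was above both wild-type arrays, and hTNF replicate 1 lay closest to them. In the fit without the filter the difference was 0.71 ± 0.22 log2 in hTNF against wild type (limma adjusted p = 0.0486) and 1.02 ± 0.22 in joints labelled Sphk1 null against wild type (limma adjusted p = 0.00734). The second probe set (1417263) read 4.98, 5.81 and 5.16 log2 in joints labelled Sphk1 null, 4.63, 4.65 and 4.98 in hTNF and 4.63 and 4.86 in wild type. Its difference of 0.01 ± 0.23 log2 in hTNF against wild type did not follow the first (limma adjusted p = 0.992, without the filter). No detection calls came with the values, so whether either probe set was above its background is not known here, and the 2 probe sets together set no firm direction for Ptgs2 in hTNF joints.

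Ptgis, the prostacyclin synthase, went the other way. Its probe set (1448816) read 10.93, 10.89 and 10.82 log2 in joints labelled Sphk1 null, 11.60, 11.07 and 11.02 in hTNF and 11.81 and 11.67 in wild type. The 3 groups did not overlap, with the joints labelled Sphk1 null lowest, wild type highest and hTNF replicate 1 within 0.1 log2 of wild type. Ptgis fell by 0.51 log2 in hTNF against wild type (SE 0.16; limma adjusted p = 0.0371) and by 0.86 in joints labelled Sphk1 null against wild type (SE 0.16; limma adjusted p = 0.00253). The first call ended without wild-type replicate 1 or 2, hTNF replicate 2 or 3, or replicate 3 of the joints labelled Sphk1 null (limma adjusted p = 0.200, 0.0834, 0.109, 0.118 and 0.0575), while the second held under every alternative run.

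Neither prostaglandin D2 synthase was called. The brighter Ptgds probe set (1423859) read 7.42, 7.31 and 7.48 log2 in joints labelled Sphk1 null, 7.31, 7.41 and 7.36 in hTNF and 7.33 and 7.30 in wild type. All 8 values thus lay within 0.2 log2 of each other, and the 95% interval of the difference in hTNF against wild type was -0.22 to 0.31 log2. Hpgds (1421492), a synthase known from mast cells and megakaryocytes, read below the filter value on all 8 arrays, at 6.25, 6.26 and 6.45 log2 in joints labelled Sphk1 null, 6.16, 6.54 and 6.57 in hTNF and 6.66 and 6.69 in wild type. The transgenic arrays were all below wild type, but the difference of -0.25 ± 0.16 log2 in hTNF did not pass in the fit without the filter (limma adjusted p = 0.37). Beside it, 3 of 4 tested mast cell genes fell in hTNF against wild type, and the mean of 8 mast cell genes was 6.46 to 6.62 log2 in joints labelled Sphk1 null, 6.41 to 6.59 in hTNF and 6.99 to 7.02 in wild type. In joints labelled Sphk1 null against wild type 3 of the 4 mast cell genes fell and 1 rose. Of 5 megakaryocyte and platelet genes 1 rose and 0 fell in hTNF against wild type, with a median difference of -0.01 log2. Over all tested genes 16.5% were called higher and 19.6% lower in hTNF against wild type. In joints labelled Sphk1 null against wild type these shares were 19.1% and 23.8%. The part of mast cells and megakaryocytes in the Hpgds values was not tested.

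Hpgd, which inactivates prostaglandins, fell in transgenic joints. Its brighter probe set (1419905) read 8.53, 7.97 and 7.97 log2 in joints labelled Sphk1 null, 8.29, 8.83 and 8.39 in hTNF and 9.23 and 9.22 in wild type. All transgenic arrays lay below wild type. Hpgd fell by 0.72 log2 in hTNF against wild type (SE 0.21; 1.65-fold lower; limma adjusted p = 0.025) and by 1.07 in joints labelled Sphk1 null (SE 0.21; 2.1-fold lower; limma adjusted p = 0.00304). The dimmer probe set (1419906), which passed the filter only through its 2 wild-type values, averaged 6.04 ± 0.15 log2 (SD, n = 3) in joints labelled Sphk1 null, 6.44 ± 0.11 (n = 3) in hTNF and 6.94 (6.92 and 6.96) in wild type, and was called lower in both groups. The call of the brighter probe set in hTNF ended without hTNF replicate 1 or 3 or wild-type replicate 1 or 2 (limma adjusted p = 0.0693, 0.078, 0.116 and 0.0965), and the call in joints labelled Sphk1 null held under every alternative run.

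Lists of vessel, muscle and fat cells were, like Ptgis and Hpgd, lower in transgenic joints than in wild type. Of 8 endothelial genes 7 fell in hTNF against wild type and of 6 smooth muscle and pericyte genes all 6 fell, and cells of vessel walls are known sources of prostacyclin. The smooth muscle and pericyte list averaged 10.41 to 10.61 log2 in joints labelled Sphk1 null, 10.41 to 10.69 in hTNF and 11.68 to 11.85 in wild type. The endothelial list averaged 9.29 to 9.49 log2 in joints labelled Sphk1 null, 8.93 to 9.32 in hTNF and 9.71 to 9.95 in wild type. Of the endothelial genes 3 of 8 fell in joints labelled Sphk1 null against wild type, where 23.8% of all tested genes did. Against hTNF the median difference of the endothelial genes in those joints was 0.23 log2, while Ptgis and Hpgd each differed by -0.35. Adipocyte genes fell in 6 of 6 and skeletal muscle genes in 7 of 8 in hTNF. Other lists fell there too, Schwann cell genes in 4 of 4 and cartilage genes in 3 of 5. Of 5 bone genes 2 fell and 1 rose. Over all tested genes 19.6% were called lower in that comparison. The part of these tissues in the falls of Ptgis and Hpgd was not tested.

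**Figure D2:**
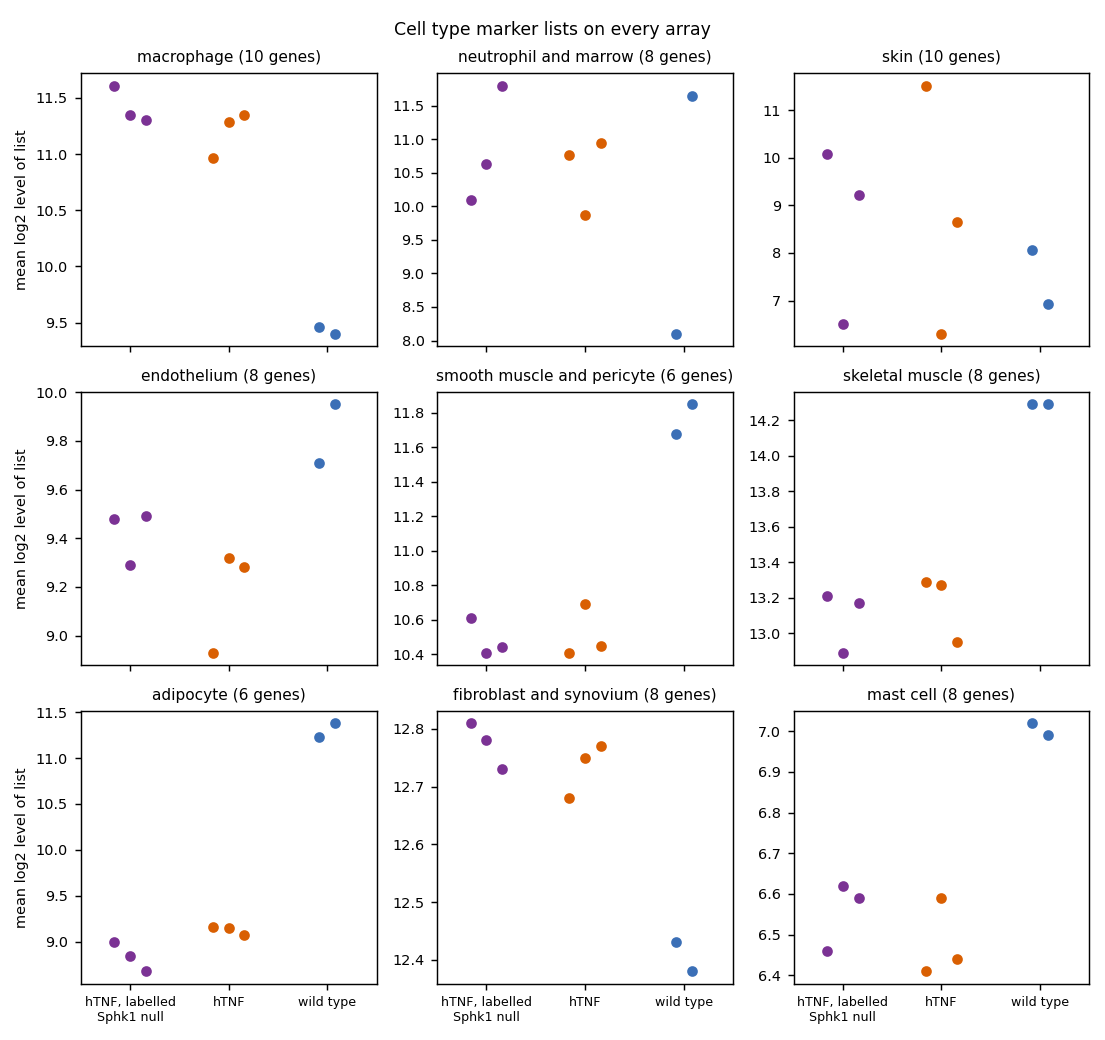
Mean log2 level of 9 marker lists on each of the 8 arrays, by group, with a separate vertical range in each panel; each point is 1 array and the title gives the number of genes measured. The macrophage list was 10.97 to 11.61 on transgenic arrays and 9.40 to 9.46 in wild type, the smooth muscle and adipocyte lists were lower on all transgenic arrays, and the skin and marrow lists spread widely within groups.

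Counted by gene, each through its brightest tested probe set, 7 of the 10 members were tested. In hTNF against wild type 4 rose and 2 fell, where 16.5% of 12362 tested genes were called higher and 19.6% lower. The median difference of the 7 was 0.88 log2, beside -0.02 over all tested genes. In joints labelled Sphk1 null against wild type the same counts were 4 and 2, where 19.1% of tested genes were called higher and 23.8% lower, and the median was 0.80 beside -0.02. These 2 comparisons share the wild-type arrays. Ptger2 passed the filter only through its transgenic values, and the members were chosen with earlier results of these data known. The counts and medians over tested members are therefore a description.

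**Figure D3:**
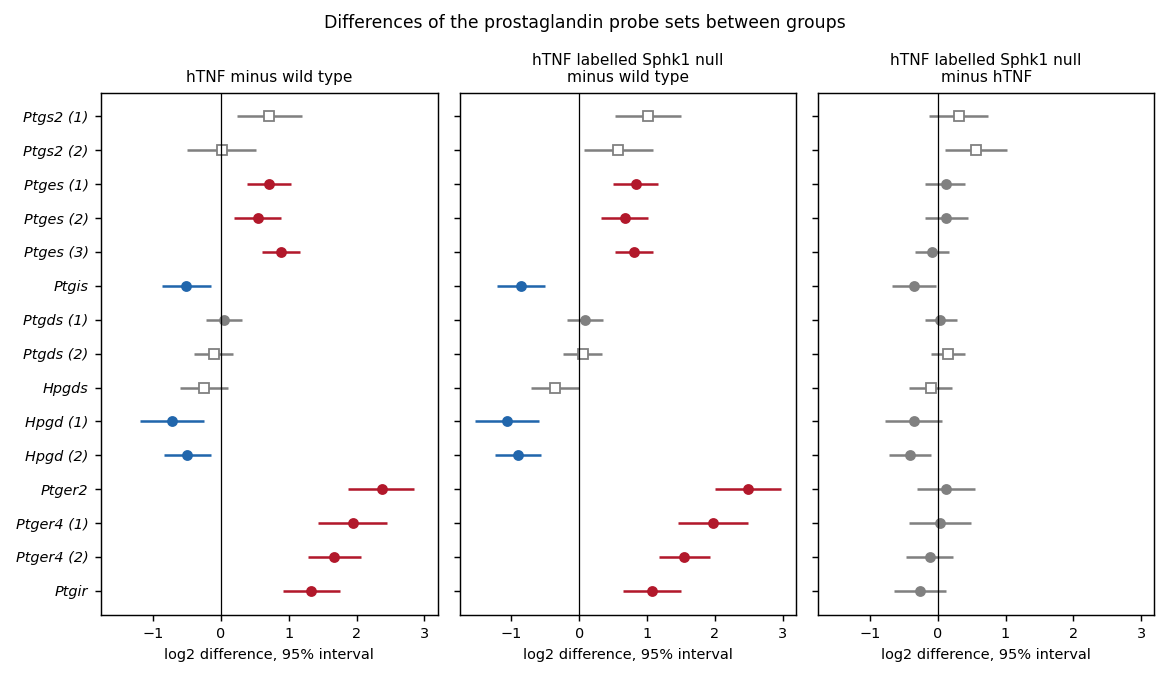
Log2 difference of all 15 probe sets in 3 comparisons, with 95% intervals from limma; red marks called higher, blue called lower, grey not called, and open squares probe sets below the filter, whose values come from the fit without it. Numbers in brackets tell probe sets of 1 gene apart. In the right panel, joints labelled Sphk1 null minus hTNF, no probe set was called, and all differences lay between -0.41 and 0.56 log2.

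Between joints labelled Sphk1 null and hTNF joints no member was called. Limma called 0 of the 7 tested members, where 0.0162% of tested genes were called. At an unadjusted p under 0.05 there was 1 of 7, Ptgis, where 6.27% of tested genes passed. Ptgis differed by -0.35 ± 0.14 log2 (SE, 3 arrays against 3; 95% interval -0.68 to -0.02; limma adjusted p = 0.651), without overlap of the groups, lower, as was seen in 4.91% of tested genes. Without hTNF replicate 1, whose value was near wild type, the difference was -0.16 ± 0.09 log2 (limma adjusted p = 0.999). That array also had the highest skin list, at 11.52 log2. With the skin level as a covariate the Ptgis difference was -0.33 ± 0.12, and the part of skin in it was not tested. Hpgd differed by -0.35 ± 0.19 (95% interval -0.77 to 0.07; limma adjusted p = 0.685), with overlap of the groups. Its difference was -0.18 without hTNF replicate 2 and -0.53 without replicate 1 of the joints labelled Sphk1 null. The dimmer Hpgd probe set differed by -0.41 ± 0.14 without overlap (limma adjusted p = 0.611).

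The receptors and Ptges differed little between the transgenic groups, with intervals that leave room for modest changes. The 95% interval of the difference was -0.31 to 0.55 log2 for Ptger2, -0.47 to 0.22 for Ptger4, -0.64 to 0.12 for Ptgir and -0.33 to 0.17 for Ptges, with limma adjusted p of 0.899, 0.859, 0.732 and 0.872. No fall of Ptgs2 was seen in joints labelled Sphk1 null. Its brighter probe set differed by 0.31 ± 0.19 log2 (95% interval -0.13 to 0.74) and the dimmer by 0.56 ± 0.20 (0.11 to 1.02), neither of which passed in the fit without the filter (limma adjusted p = 0.835 and 0.735).

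Of 37 other pathway genes, 32 were tested, and 7 rose and 4 fell in hTNF against wild type, beside 16.5% and 19.6% of all tested genes. Their median difference was -0.09 log2, beside -0.02 over all tested genes, so the list as a whole lay near the background, and the genes below are given singly. Upstream, 2 of the 6 arachidonate supply genes rose, the secreted Pla2g2e (0.80 ± 0.16 log2; limma adjusted p = 0.00377) and Pla2g4a (0.77 ± 0.16; limma adjusted p = 0.00574), the cytosolic enzyme that frees arachidonic acid. Among 6 other terminal synthases and reductases, the aldo-keto reductase Akr1b8 (1.51 ± 0.13; limma adjusted p = 5.66e-05) and the thromboxane synthase Tbxas1 (1.04 ± 0.12; limma adjusted p = 0.000274) rose. The carbonyl reductase Cbr2 (-0.60 ± 0.17; limma adjusted p = 0.0213) and Ptges2, another prostaglandin E synthase (-0.48 ± 0.16; limma adjusted p = 0.0459), fell. Tbxas1 is known from macrophages and platelets, and read 8.21 and 8.13 log2 in wild type, below the 9.10 to 9.40 of the 6 transgenic arrays.

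Of 6 tested genes of the list of other prostanoid receptors 1 rose, near the 16.5% of all tested genes: Ptgfrn (1.08 ± 0.12 log2; limma adjusted p = 0.000244), which encodes a membrane protein that binds the prostaglandin F receptor and is no receptor itself. The EP3 receptor Ptger3 differed by -0.55 ± 0.22 (limma adjusted p = 0.0809), Ptger1 by -0.10 ± 0.13 (limma adjusted p = 0.629) and the thromboxane receptor Tbxa2r by -0.25 ± 0.17 (limma adjusted p = 0.301). Of 5 transport and turnover genes 2 rose, Ptgr1 (1.36 ± 0.14; limma adjusted p = 0.000155), which reduces oxidised prostaglandins downstream of Hpgd, and Cyp4f18 (1.21 ± 0.20; limma adjusted p = 0.00162), a cytochrome known to hydroxylate leukotriene B4 in mouse neutrophils. The transporter Slco2a1, which takes up prostaglandins, differed by 0.10 ± 0.16 (limma adjusted p = 0.691).

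Genes known to answer cyclic AMP, the second messenger of the 3 member receptors, were tested in 9 cases. In hTNF against wild type 0 rose (limma) and 2 fell, beside 16.5% and 19.6% of all tested genes, the phosphodiesterase Pde4d (-1.45 ± 0.26 log2; limma adjusted p = 0.00226) and the nuclear receptor Nr4a1 (-1.39 ± 0.21; limma adjusted p = 0.000958). Without overlap of the groups 2 of the 9 lay higher and 5 lower, where 3544 and 4334 of 12362 tested genes did. The 2 higher ones were not called: Rgs2, a regulator of G protein signalling (0.31 ± 0.13; unadjusted p = 0.0439 and adjusted p = 0.107 in limma), and the kinase Sik1 (0.25 ± 0.21; limma adjusted p = 0.402). Besides Pde4d and Nr4a1, the lower ones were Per1 (-0.57 ± 0.30), Nr4a2 (-0.53 ± 0.22) and Pde4b (-0.34 ± 0.20), which were not called (limma adjusted p = 0.186, 0.0924 and 0.241). Each of these directions is that of the brightest tested probe set. Other tested Nr4a2 probe sets differed by -0.08, -0.04 and -0.01 log2, with overlap of the groups. Those of Pde4b differed by -0.42 without overlap and -0.06 with it, and those of Rgs2 by 0.36 without and 0.28 with it. Many other signals drive these genes. Between joints labelled Sphk1 null and hTNF joints none of the 32 pathway genes was called, while 4 of the 9 lay higher and 1 lower without overlap, where 5.1% and 4.91% of tested genes did. The lower one was Rgs2 (-0.27 ± 0.12; limma adjusted p = 0.654). The higher ones were Per1 (1.51 ± 0.27; limma adjusted p = 0.348), Nr4a2 (0.89 ± 0.19; 0.426), Nr4a1 (0.79 ± 0.18; 0.467) and the phosphodiesterase Pde4b (0.78 ± 0.18; 0.464). Of these 5 all but Nr4a1 were named after their values were seen. The other tested probe sets of Rgs2 differed by -0.36 and -0.37 log2, with overlap of the groups. Those of Nr4a2 differed by 0.77 and 0.67 without overlap and 0.11 with it, and those of Pde4b by 0.86 without and 0.34 with it. Nr4a1 read 11.15, 10.43 and 10.56 log2 in joints labelled Sphk1 null, 9.74, 9.98 and 10.04 in hTNF and 11.46 and 11.16 in wild type, so the transgenic groups stood apart from each other while wild type was highest.

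**Figure D4:**
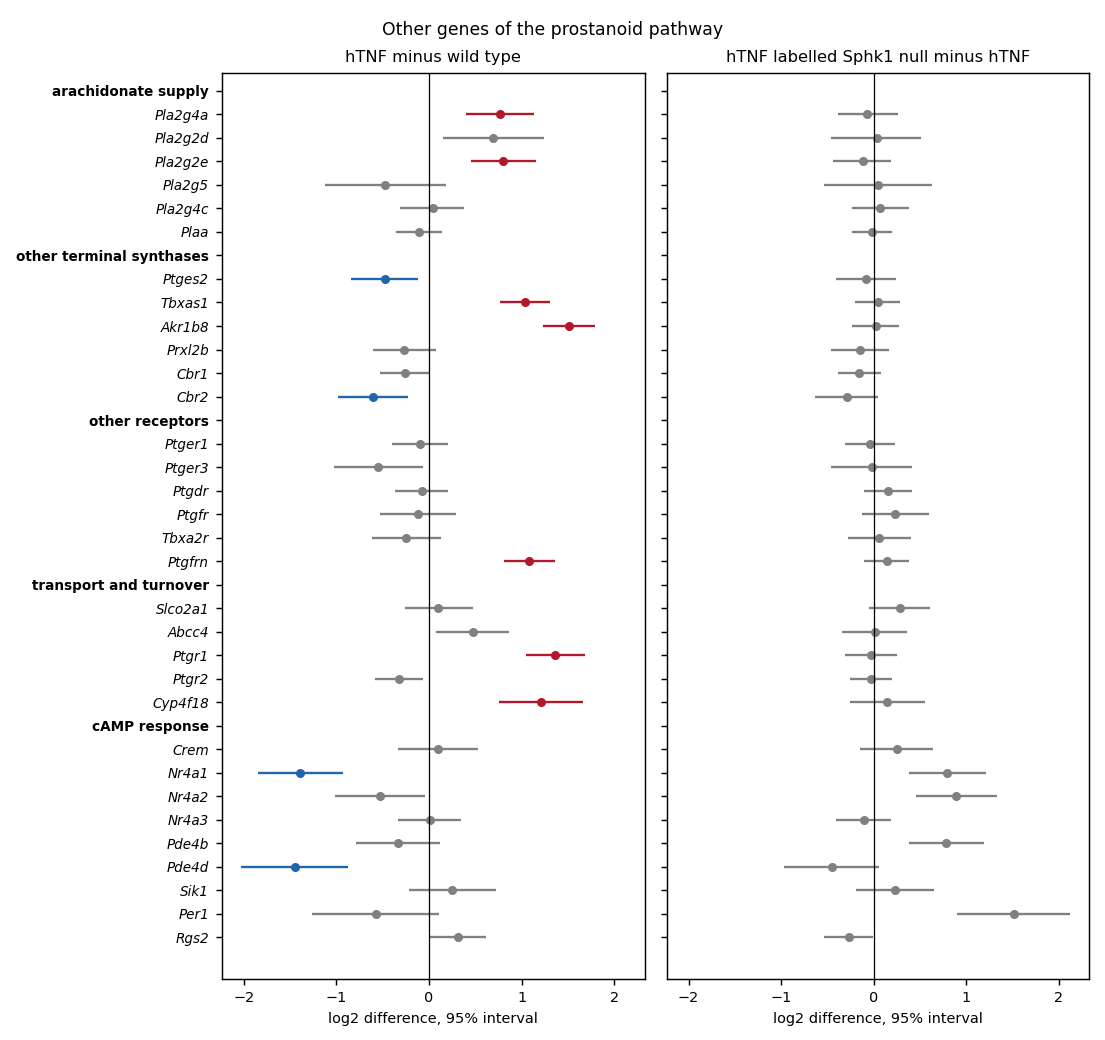
Log2 difference of the 32 tested other pathway genes, with 95% intervals, in hTNF minus wild type (left) and in joints labelled Sphk1 null minus hTNF (right); red marks called higher, blue called lower and grey not called. On the left 7 genes were called higher and 4 lower, and on the right none.

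Genes whose levels followed a member most closely over the 8 arrays were looked up among the tested genes. The arrays fall into wild-type and transgenic clusters, so a high Pearson r mainly repeats that split, and r is given as a description over 8 arrays. Ptger2 was followed most closely by Marchf1 and Naip5 (r = 0.997 each), which encode a ubiquitin ligase that acts on MHC class II molecules and a sensor of bacterial flagellin, and 859 genes reached at least 0.95. For Ptger4 the closest were the monocyte chemokine receptor Ccr2 (0.996) and the acid ceramidase Asah1 (0.994), with 633 genes at 0.95 or more. Ptgis had only 32 such genes, led by the growth factor Hbegf (0.988) and the homeobox gene Irx5 (0.983), and for both of them, as for Ptgis, hTNF replicate 1 read nearest to wild type of the transgenic arrays and the joints labelled Sphk1 null read lowest. Hpgd was nearest to Oxld1 (0.984) and Cox6b1 (0.981), a subunit of cytochrome oxidase. Ptges was followed by Zc3h12d (0.996) and Nagk (0.994), Ptgir by Lss and Map3k14 (0.988 each), and Ptgds, which hardly varied, by Zfp282 (0.984) and Gcc1 (0.960).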

How the data were processed

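Ankle joint RNA was measured on 8 Affymetrix arrays. The values are log2 expression per probe set in 1 table, as deposited by the authors. RMA, MAS5 and Affymetrix Expression Console are named per the submitters' processing notes, without saying which of RMA and MAS5 gave the table. Gene symbols came from the platform annotation and were updated with a GRCm38.p6 gene table (34945 probe sets had 1 gene, of which 34754 matched, 932 had several and 9160 none listed, and only the first kind was named). The 64 control probe sets were left out, and 24115 probe sets above 6.87 log2 on at least 2 arrays were tested with limma 3.58.1 in R 4.3.3: 1 mean per group over all 8 arrays, moderated variances with an intensity trend, 5 residual degrees of freedom, and Benjamini-Hochberg adjustment within each contrast across the tested probe sets. Probe set numbers are given without their suffix. A call is an adjusted p under 0.05, and "rose" and "fell" are used of calls. For arrays, their number limits the precision. The code was tested on simulated data.

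The members and lists were chosen with earlier results of these data known. All members are named, with the up to 3 largest called changes of each other pathway list in hTNF against wild type (the smallest p where none was called), any list gene called between the transgenic groups, Sphk1, and the 2 genes most like each tested member. Ptges2, Ptger1, Ptger3, Tbxa2r, Slco2a1, Per1, Nr4a2, Pde4b, Rgs2 and Sik1 fall outside that rule and were named after their values were seen. Alternatives covered the normalization, filter, offset, variance model, arrays, replicate block, covariates and probe set choice.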

Additional observations from a re-analysis of the deposited data

How the results depend on the processing

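Counts of called members changed most in hTNF against wild type, where the calls of Ptgis and Hpgd depended on single arrays. In hTNF against wild type 6 of 7 tested members were called, and 4 to 6 when each array was left out in turn; the 4 rises were called under every alternative, the calls that were lost were those of Ptgis and Hpgd, and that of Ptgs2 was gained without the filter (5 higher, 1 lower). Beside the arrays named with them, the Ptgis call in hTNF ended without the filter (limma adjusted p = 0.0546), without the intensity trend (0.0502), with only the 2 groups compared (0.0789), and with the Y-linked level (0.0518; Eif2s3y alone, as Ddx3y had no probe set) or the marrow level (0.0634) as a covariate. It held with the skin level as a covariate. Without the 3 arrays that carried both Xist and Y-linked signal, chosen after seeing the data, 5 were called: Ptgis differed by -0.76 log2 (limma adjusted p = 0.00219) and Hpgd by -0.62 (0.0582). The fit with replicate number as a block called 5, with Hpgd at -0.65 (limma adjusted p = 0.0656). Same-numbered arrays of different groups did not all deviate together (r = -0.167 to 0.273 over 7 pairs, 4 of them above 0.1). The deviations of the 2 wild-type arrays mirror each other, so these values cannot settle whether the numbers pair the arrays. In joints labelled Sphk1 null against wild type the count was 6 under each alternative except 7 without the filter, where Ptgs2 was added, and in joints labelled Sphk1 null against hTNF it was 0 under each. Over all probe sets, 7965 were called in hTNF against wild type and 4695 without wild-type replicate 1. Between the transgenic groups 2 were called, against 14 with the Y-linked covariate, 6 with quantile normalization, and 0 when any single array was left out except replicate 2 of the joints labelled Sphk1 null (3). With probe sets averaged per gene the unit is the gene, so these counts cannot be set against those of probe sets. They were 4141 genes for hTNF and 4882 for joints labelled Sphk1 null against wild type, where 9395 probe sets were called otherwise. Between the transgenic groups the count was 0. Brightness limits Ptgs2 and Hpgds, which lie below the filter value on all arrays.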
